A study of Mus musculus with 10 samples.

Results

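The genes described here are the subunits of the muscle nicotinic acetylcholine receptor and the postsynaptic genes that place and hold that receptor at the neuromuscular junction. The list of 10 genes holds the receptor subunits Chrna1, Chrnb1, Chrnd, Chrne, and Chrng and the organizer genes Musk, Rapsn, Dok7, Lrp4, and Colq. They were chosen by symbol after the Ensembl identifiers of the count files had been matched to the GRCm38 annotation. The rule uses no expression value, but it was set with earlier results of these data known. Of the 16112 genes in the count files, 9 are members of this list. Chrng, the gamma subunit of the fetal receptor, has no row in the files used here and its level was not analysed here.

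RNA was sequenced from extensor digitorum longus (EDL, a fast muscle of the lower leg), psoas (a fast muscle of the hip), and soleus (a slow muscle of the calf) of mice of the strain B6C3Fe a/a-Ttnmdm/J. All 10 libraries carry the label wild type, so none is labelled as carrying the titin mutation of that strain name. The muscles are compared in animals of 1 labelled genotype, and the labels used here name no treatment. The study's methods state that the mice had also been subjected to another study, whose procedures they do not describe. There were 3 EDL libraries (42, 54, and 44 days of age), 3 psoas libraries (42, 54, and 44 days), and 4 soleus libraries (42, 44, 32, and 44 days), numbered in that order below. EDL 1 and 2, psoas 1 and 2, and soleus 1 came from males, EDL 3, psoas 3, soleus 2, and soleus 4 from females, and the sex for soleus 3 is not given. The labels hold 7 animal codes, of which 3 stand for more than 1 library, so some muscles came from the same mouse. The study's methods give fewer mice than there are codes, so different codes may also stand for the same mouse, and the number of independent animals behind each n is uncertain.

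The neuromuscular junction is the synapse at which a motor neuron drives a muscle fiber. The nerve secretes agrin, which binds LRP4 on the fiber, LRP4 activates the receptor kinase MuSK together with its cytoplasmic adaptor DOK7, and rapsyn then anchors clusters of acetylcholine receptors beneath the nerve terminal. The adult receptor is built from alpha, beta, delta, and epsilon subunits, the fetal receptor carries gamma in place of epsilon, and the subunit genes are transcribed mainly by the few nuclei under the synapse of an innervated fiber. Muscle activity represses these genes in the other nuclei of the fiber, and denervation lifts that repression. Because whole muscles were sequenced, fewer junctions or subsynaptic nuclei in a muscle and less RNA from each of them cannot be told apart.

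Transcription of receptor subunit genes is classically tied to E-boxes (CANNTG), bound by myogenic factors such as MyoD and myogenin, and in synaptic nuclei to the N-box (CCGGAA), bound by ETS factors such as GABP. The windows below were taken from RefSeq (GRCm38.p6), run 5′ to 3′ on the strand of the gene from 250 bases before to 50 bases after an annotated start, and are shown because both motifs have been described in this gene family. Capitals mark E-boxes and N-boxes found on either strand, and no motif overlapped another. The table of windows held 6 of the 10 genes, and Chrnd, Rapsn, Lrp4, and Colq had no window in it.
Chrna1 (chr2:73580289-73580588, minus strand): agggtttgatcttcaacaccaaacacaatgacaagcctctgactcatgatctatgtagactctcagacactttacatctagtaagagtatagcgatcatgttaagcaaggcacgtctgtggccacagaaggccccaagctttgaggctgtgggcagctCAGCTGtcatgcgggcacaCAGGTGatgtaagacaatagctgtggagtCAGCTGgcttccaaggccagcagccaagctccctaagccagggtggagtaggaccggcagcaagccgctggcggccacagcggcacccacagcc
Chrnb1 (chr11:69795888-69796187, minus strand): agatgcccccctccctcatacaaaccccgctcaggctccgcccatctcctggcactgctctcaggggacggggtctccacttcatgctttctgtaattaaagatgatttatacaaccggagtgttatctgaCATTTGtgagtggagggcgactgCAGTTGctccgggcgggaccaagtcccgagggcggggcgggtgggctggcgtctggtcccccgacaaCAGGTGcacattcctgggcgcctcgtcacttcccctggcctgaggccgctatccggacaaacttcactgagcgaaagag
Chrne (chr11:70619145-70619444, minus strand): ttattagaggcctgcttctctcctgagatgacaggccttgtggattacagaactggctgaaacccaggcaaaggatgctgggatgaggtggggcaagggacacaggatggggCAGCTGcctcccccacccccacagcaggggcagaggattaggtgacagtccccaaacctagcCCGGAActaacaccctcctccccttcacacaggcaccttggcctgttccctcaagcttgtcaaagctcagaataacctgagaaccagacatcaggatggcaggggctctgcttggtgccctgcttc
Chrng (chr1:87205561-87205860, plus strand): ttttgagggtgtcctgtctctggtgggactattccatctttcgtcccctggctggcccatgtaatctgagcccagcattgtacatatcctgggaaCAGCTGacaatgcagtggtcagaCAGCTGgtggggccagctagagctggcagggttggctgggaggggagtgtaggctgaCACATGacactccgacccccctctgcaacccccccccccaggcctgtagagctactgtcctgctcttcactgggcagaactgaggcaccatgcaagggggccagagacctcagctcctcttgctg
Musk (chr4:58285712-58286011, plus strand): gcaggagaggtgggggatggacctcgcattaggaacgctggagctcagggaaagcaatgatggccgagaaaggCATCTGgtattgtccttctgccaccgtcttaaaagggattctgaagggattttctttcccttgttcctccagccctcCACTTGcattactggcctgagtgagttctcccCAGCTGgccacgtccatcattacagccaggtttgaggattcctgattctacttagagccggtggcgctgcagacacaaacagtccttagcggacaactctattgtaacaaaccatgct
Dok7 (chr5:35056516-35056815, plus strand): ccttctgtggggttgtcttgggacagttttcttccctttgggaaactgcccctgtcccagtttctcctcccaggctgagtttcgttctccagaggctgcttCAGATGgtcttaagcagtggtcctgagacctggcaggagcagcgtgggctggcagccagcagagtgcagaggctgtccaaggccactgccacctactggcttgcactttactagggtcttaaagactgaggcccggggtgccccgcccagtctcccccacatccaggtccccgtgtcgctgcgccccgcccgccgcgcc

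E-boxes were present in each printed window, with 3 in those of Chrna1, Chrnb1, Chrng, and Musk and 1 in those of Chrne and Dok7. A second Dok7 window, which starts downstream of the one printed, held 0. E-boxes are common in windows of this length, since 72.3% of 32851 windows held at least 1 and 17.6% held 3 or more. The N-box was found in the Chrne window, where it lies 76 bases before the start, and in none of the other windows printed, against 14.9% of all windows. These matches describe the letters of the windows and were not tested as binding sites.

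The 10 libraries held between 12737971 and 50431713 counted reads. The limit that a count of 0 allows, 3 reads, corresponded to between 0.0595 and 0.236 CPM (counts scaled to a common library size) before TMM normalization. In psoas 2, for example, 3 reads were 0.137 CPM before it and 0.190 CPM after it. Levels below are CPM after TMM normalization, and levels of different genes are compared only as FPKM, which are CPM divided by the kilobases of exon. Same-muscle libraries correlated at r = 0.938 to 0.977 on log2 CPM across genes, and none was a repeat of another. The summed CPM of 6 slow-fiber marker genes was 14231 to 23827 in soleus, 41.9 to 253 in EDL, and 5.94 to 67.1 in psoas. This sum set every soleus library apart from the fast muscle libraries, whereas EDL and psoas overlapped in it. The sum of 8 tendon markers was 757 to 825 in EDL, 31.8 to 82.7 in psoas, and 86.8 to 519 in soleus, and the sum of 6 fibroblast markers was 1929 to 3450, 621 to 957, and 636 to 1241. Their part in the comparisons with EDL was not tested. For the nerve, 9 of 10 Schwann cell markers were measured, with sums of 37.8 to 60.9 CPM in EDL, 19.7 to 94.3 in psoas, and 32.1 to 45.9 in soleus, and 0 of the 9 passed the thresholds in any comparison. Of 8 axon markers, 5 including the neurofilament genes Nefl, Nefm, and Nefh had no row, and the 3 measured ones summed to 4.12 to 5.82 CPM in EDL, 1.52 to 2.53 in psoas, and 5.23 to 8.77 in soleus. In this sum psoas lay below both other muscles, and 1 of the 3 markers, Prph, was called lower in psoas than in EDL and higher in soleus than in psoas. Prph had 2, 2, and 0 reads in psoas 1 to 3, under the limit of 3 reads, and 3 reads in soleus 3. Stmn2 overlapped between the muscles, at 1.27 to 2.27 CPM in psoas, 1.70 to 2.79 in EDL, and 1.85 to 2.45 in soleus. The sum of 6 skeletal muscle fiber markers was 48795 to 67343 CPM in EDL, 89226 to 110242 in psoas, and 71930 to 92203 in soleus, with EDL below both other muscles. The part of the nerve and fiber markers in the comparisons was not tested. The reads of EDL 1, EDL 2, psoas 1, and psoas 2 had been trimmed by the authors and those of the soleus libraries had not, so trimming is partly confounded with muscle. The study's methods also describe several sequencing runs and a correction for sequencing batch in its distances, principal components, and heatmaps. The run was not a covariate in any fit here, and its part in the comparisons was not tested.

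Per kilobase of exon and averaged over the 10 libraries, Musk had the highest level of the 9 genes (5.57 FPKM), followed by Chrnb1 (5.05) and Chrna1 (4.07). Dok7 (2.60 FPKM), Lrp4 (2.04), and Rapsn (1.31) were intermediate. Chrne (0.997 FPKM), Colq (0.712), and Chrnd (0.278) were lowest, and the delta subunit rested on as few as 5 reads in psoas 2 and psoas 3. The order differed between muscles. Chrnb1 led in EDL with 6.46 ± 0.395 FPKM (SD, n = 3) and in psoas with 4.56 ± 0.248 (n = 3), whereas Musk led in soleus with 9.25 ± 3.96 (n = 4), although the ranges of Musk and Chrna1 there overlapped (5.27 to 14.1 against 5.92 to 7.41 FPKM).

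The plot of levels by library shows the values behind the comparisons. A gene was called differentially expressed when edgeR's quasi-likelihood test gave a Benjamini-Hochberg adjusted p below 0.01 with more than a 2-fold difference. In psoas vs EDL 0 of the 9 genes met this rule, beside 2.11% of all genes, and DESeq2 and limma-voom also called 0. In soleus vs EDL 3 of the 9 met it, beside 5.77% of all genes, 2 of them higher in soleus (3.59% of all genes) and 1 lower (2.18%). In soleus vs psoas 2 met it, beside 5.69% of all genes, both higher in soleus (2.99%). At an unadjusted p under 0.05 there were 2, 9, and 5 of the 9 genes, beside 29% of all genes in psoas vs EDL, 35% in soleus vs EDL, and 28.4% in soleus vs psoas. With an adjusted p under 0.05 and no minimum fold, the counts were 0, 7, and 4 of 9, against 11.1%, 18.6%, and 14.5% of all genes. The libraries of the compared muscles did not overlap in CPM for 2, 7, and 5 of the 9 genes, against 29.6%, 29.5%, and 25.8% of all genes. The median log2 fold change of the 9 genes was 0.28 in psoas vs EDL, 0.81 in soleus vs EDL, and 0.43 in soleus vs psoas, beside 0.01, -0.05, and 0.02 for all genes. For the 6 skeletal muscle fiber markers the medians were 0.77, 0.70, and -0.11, with 6, 4, and 2 of the 6 values above 0.

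**Figure D1:**
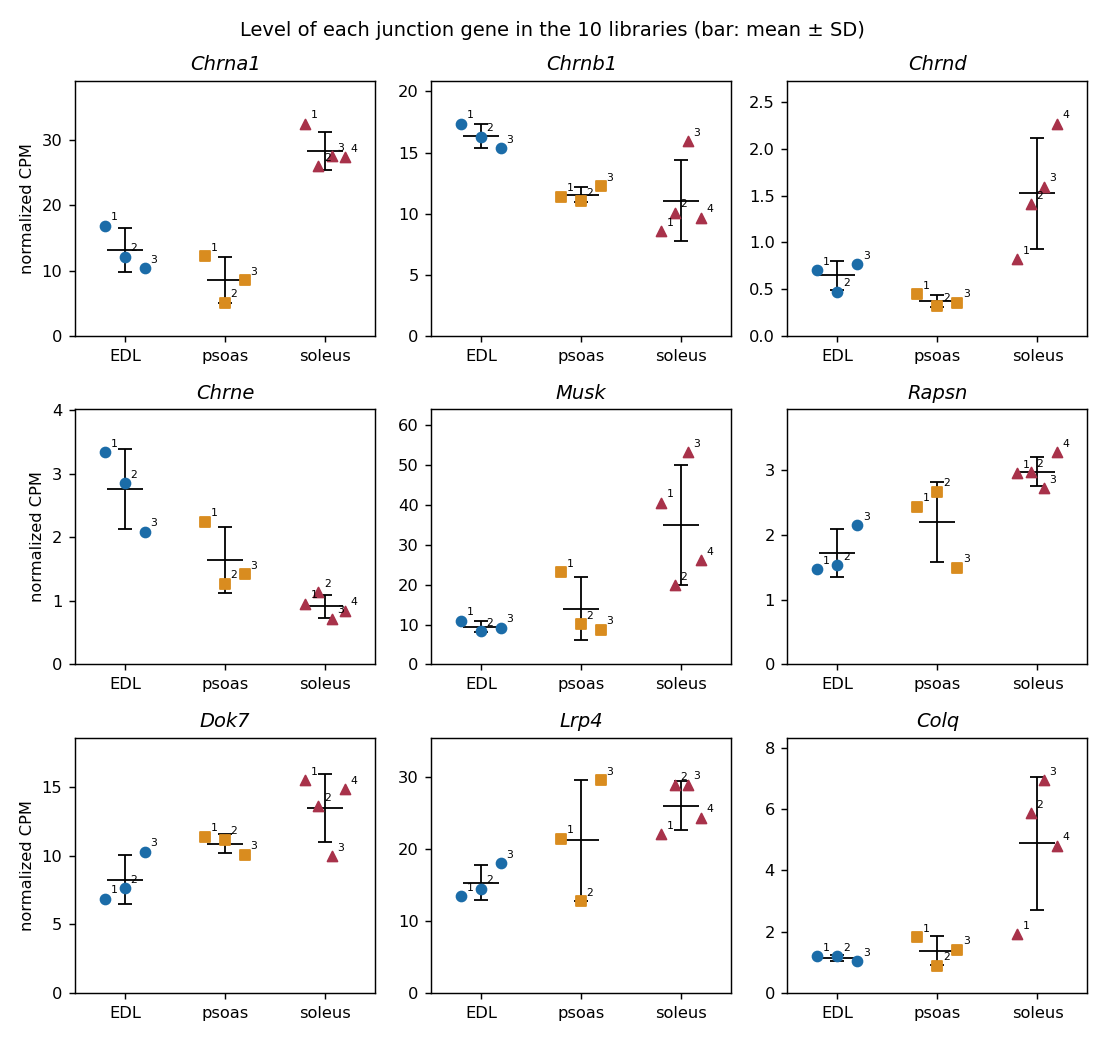
Normalized CPM (vertical axes, from 0) of the 9 measured junction genes in each library by muscle, with the replicate number beside each point and bars for the mean ± SD. The 4 soleus libraries lie above all EDL and psoas libraries for Chrna1 and Colq, and below all of them for Chrne.

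Chrna1 encodes the alpha subunit, which is present in 2 copies in each receptor and forms the acetylcholine binding sites (GRCm38 chromosome 2, 73563215 to 73580338, minus strand). Its level was 32.5, 26.0, 27.5, and 27.3 CPM in soleus 1 to 4. It was 16.9, 12.1, and 10.4 CPM in EDL 1 to 3 and 12.2, 5.07, and 8.57 CPM in psoas 1 to 3. Every soleus library stood above every fast muscle library, whereas EDL and psoas overlapped. The means were 28.3 ± 2.87 CPM in soleus (SD, n = 4), 13.1 ± 3.35 in EDL (n = 3), and 8.60 ± 3.55 in psoas (n = 3). Chrna1 rose 3.26-fold in soleus over psoas (log2 fold change 1.70, SE 0.27), with an adjusted p of 0.0019 in edgeR's quasi-likelihood test. This call was made under 21 of 22 alternative settings. The exception was the fit within untrimmed libraries, where the difference was 1.71 with an adjusted p of 0.0272. Against EDL the log2 fold change was 1.11 (SE 0.26, adjusted p = 0.0154 by edgeR), which missed the threshold of 0.01, and was 1.40 within untrimmed libraries. Over the 22 alternatives the adjusted p of this difference ran from 0.0012 to 0.0711, and 5 of them called it. These were limma-voom with the animal as a random effect (adjusted p = 0.0071), DESeq2 (adjusted p = 0.0012), the fit of the 2 muscles alone (adjusted p = 0.0059), and the fits without psoas 1 or psoas 2 (adjusted p of 0.0090 and 0.0071 by edgeR).

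Chrnb1 encodes the beta subunit, whose phosphorylation links the receptor to rapsyn and the cytoskeleton (chromosome 11, 69784036 to 69795943, minus strand). Its level was 17.4, 16.3, and 15.4 CPM in EDL 1 to 3, 11.4, 11.0, and 12.2 CPM in psoas 1 to 3, and 8.55, 10.1, 15.9, and 9.66 CPM in soleus 1 to 4. All EDL libraries lay above all psoas libraries, and soleus 3, from the youngest mouse, lay within the EDL range while the other 3 soleus libraries were below all psoas libraries. None of the differences passed an adjusted p of 0.05. The log2 fold change was -0.50 for psoas vs EDL (SE 0.21, adjusted p = 0.142 by edgeR), -0.57 for soleus vs EDL (SE 0.20, adjusted p = 0.0646), and -0.07 for soleus vs psoas with a 95% interval from -0.51 to 0.37. Thus the 2 subunit genes with the highest levels did not share a pattern: the alpha subunit was high in soleus and the beta subunit had its highest mean in EDL.

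Chrnd encodes the delta subunit (chromosome 1, 87190607 to 87200070, plus strand), and was the least abundant of the 9 genes. Its level was 0.701, 0.471, and 0.769 CPM in EDL 1 to 3, 0.449, 0.317, and 0.354 CPM in psoas 1 to 3, and 0.821, 1.41, 1.59, and 2.27 CPM in soleus 1 to 4. These values rested on 14 to 30 reads in EDL, 5 to 17 in psoas, and 12 to 47 in soleus, so the fold changes are less precise than those of Chrna1. No muscle overlapped another, with psoas lowest and soleus highest. Chrnd rose 3.96-fold in soleus over psoas (log2 fold change 1.98, SE 0.42, adjusted p = 0.0090 by edgeR). The call was made under 5 of 22 alternatives, over which the log2 fold change ran from 1.66 to 2.18 and the adjusted p from 0.0014 to 0.242. It was lost on leaving out any library other than soleus 1 (adjusted p up to 0.0404), and within untrimmed libraries the difference was 2.08 (adjusted p = 0.242). With the animal as a random effect in limma-voom the difference was 1.78 and was not called (adjusted p = 0.0183). Against EDL, soleus differed by 1.26 (SE 0.39, adjusted p = 0.0426 by edgeR), and psoas vs EDL by -0.73 (SE 0.44, adjusted p = 0.300).

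Chrne encodes the epsilon subunit, which replaces gamma after birth and gives the adult receptor its short openings and high conductance (chromosome 11, 70614883 to 70619216, minus strand). Its level was 3.34, 2.85, and 2.09 CPM in EDL 1 to 3, 2.24, 1.27, and 1.42 CPM in psoas 1 to 3, and 0.958, 1.14, 0.718, and 0.845 CPM in soleus 1 to 4. All 4 soleus libraries were below all fast muscle libraries, the reverse of Chrna1 and Chrnd, and psoas 1 reached into the EDL range. Chrne fell in soleus, where it was 2.98-fold lower than in EDL (log2 fold change -1.57, SE 0.29, adjusted p = 0.0046 by edgeR). The call was made under 12 of 22 alternatives, with log2 fold changes from -1.73 to -1.22 and adjusted p from 2.0e-04 to 0.247. It was lost on dropping EDL 1, EDL 2, soleus 1, soleus 3, or soleus 4 (adjusted p of 0.0109 to 0.0251), and the difference within untrimmed libraries was -1.22 (adjusted p = 0.247). Against psoas, soleus differed by -0.85 (SE 0.30, adjusted p = 0.0899), and psoas differed from EDL by -0.73 (SE 0.31, adjusted p = 0.142). Soleus counts of Chrne were between 9 and 38 reads per library.

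**Figure D2:**
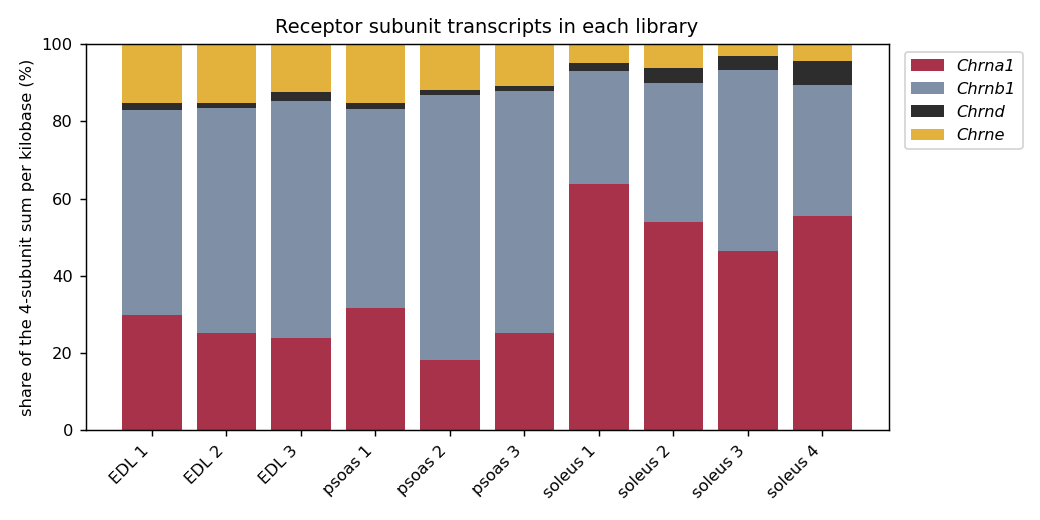
Share of each receptor subunit (vertical axis, %) in the summed FPKM of the 4 measured subunits, 1 bar per library. Chrna1 takes 46.5% to 63.8% in the soleus libraries and 18.2% to 31.8% in the EDL and psoas libraries, while Chrne takes 3.15% to 6.11% in soleus and 10.8% to 15.3% in EDL and psoas.

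Because the 4 adult subunits form 1 channel, their transcripts were also expressed as shares of their summed FPKM in each library. Chrna1 made up 26.3% ± 3.13 of the sum in EDL (SD, n = 3), 25.1% ± 6.80 in psoas (n = 3), and 54.9% ± 7.11 in soleus (n = 4). Chrnb1 made up 57.6% ± 4.09, 60.8% ± 8.65, and 36.5% ± 7.43 in the same order. The epsilon share was 14.3% ± 1.64 in EDL, 12.6% ± 2.30 in psoas, and 4.65% ± 1.22 in soleus. The delta share was small, at 1.77% ± 0.540, 1.49% ± 0.0885, and 3.94% ± 1.65. In soleus the transcript pool thus held more alpha than beta in 3 of 4 libraries, and soleus 3 held nearly the same share of both (46.5% and 46.7%), whereas beta exceeded alpha in each of the 6 fast muscle libraries. No test was made on the shares, since a rise of 1 subunit lowers the share of the others. Without the correction for exon length the Chrna1 shares were 39.5%, 37.7%, and 67.9%. Psoas 1 then held more alpha than beta (46.4% against 43.4%), as did soleus 3 (60.1% against 34.8%). In these libraries the order of alpha and beta thus depended on the correction.

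Lrp4 encodes the agrin receptor (chromosome 2, 91457511 to 91513779, plus strand). Its level was 13.4, 14.5, and 18.0 CPM in EDL 1 to 3, 21.4, 12.7, and 29.5 CPM in psoas 1 to 3, and 22.0, 28.9, 28.9, and 24.3 CPM in soleus 1 to 4. All soleus libraries exceeded all EDL libraries, and psoas spanned both. On the log2 scale soleus differed from EDL by 0.77 (SE 0.25, adjusted p = 0.0508 by edgeR), psoas from EDL by 0.47 (SE 0.26, adjusted p = 0.255), and soleus from psoas by 0.30 with a 95% interval from -0.24 to 0.83.

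Musk encodes the muscle-specific kinase at the center of postsynaptic assembly (chromosome 4, 58285960 to 58374303, plus strand). Its level was 40.5, 19.9, 53.3, and 26.1 CPM in soleus 1 to 4, 11.0, 8.31, and 9.17 CPM in EDL 1 to 3, and 23.1, 10.1, and 8.71 CPM in psoas 1 to 3. Each soleus library exceeded each EDL library, but psoas 1 lay above soleus 2. Soleus 1 and psoas 1 carry the same animal code and were the second highest soleus and the highest psoas library. Musk rose 3.67-fold in soleus over EDL (log2 fold change 1.88, SE 0.40, adjusted p = 0.0088 by edgeR). The spread in soleus was wide (34.9 ± 15.0 CPM, SD, n = 4, against 9.49 ± 1.36 in EDL, n = 3), and the call was made under 11 of 22 alternatives with log2 fold changes from 1.41 to 2.20 and adjusted p from 4.1e-05 to 0.174. It was lost on dropping psoas 2, soleus 1, soleus 3, soleus 4, or any EDL library (adjusted p of 0.0124 to 0.0464), and within untrimmed libraries the difference was 1.88 (adjusted p = 0.174). Against psoas the difference was 1.30 (SE 0.39, adjusted p = 0.0443), and it passed the thresholds under DESeq2 alone of the 22 alternatives. Psoas vs EDL gave 0.58 (SE 0.40, adjusted p = 0.376), which became -0.04 without psoas 1.

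Dok7 encodes the adaptor that activates MuSK from inside the fiber (chromosome 5, 35056766 to 35087839, plus strand). Its level was 6.84, 7.63, and 10.3 CPM in EDL 1 to 3, 11.4, 11.2, and 10.1 CPM in psoas 1 to 3, and 15.5, 13.6, 9.97, and 14.8 CPM in soleus 1 to 4. Soleus 3 had the lowest value of the soleus libraries and lay below EDL 3, so soleus and EDL overlapped. The log2 fold change was 0.72 in soleus vs EDL (SE 0.19, adjusted p = 0.0267 by edgeR), 0.41 in psoas vs EDL (SE 0.21, adjusted p = 0.217), and 0.31 in soleus vs psoas (SE 0.19, adjusted p = 0.330). Dok7 and Chrnb1 ran in opposite order over the libraries: the 3 libraries with the most Dok7 (soleus 1, 4, and 2) were the 3 with the least Chrnb1, and the 2 with the least Dok7 (EDL 1 and 2) were the 2 with the most Chrnb1. Soleus 3 followed this order and stood away from the other soleus libraries, near EDL 3, in both genes. Of all pairs of the measured members, Dok7 and Chrnb1 had the most negative correlation of log2 CPM (Pearson r = -0.920). The pair had not been named in advance.

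Rapsn encodes rapsyn, the scaffold that clusters the receptor (chromosome 2, 91035620 to 91045729, plus strand). Its level was 1.47, 1.53, and 2.14 CPM in EDL 1 to 3, 2.43, 2.66, and 1.49 CPM in psoas 1 to 3, and 2.94, 2.96, 2.71, and 3.27 CPM in soleus 1 to 4. All soleus libraries exceeded all others and varied little among themselves, with 2.97 ± 0.230 CPM (SD, n = 4). The difference stayed under 2-fold. On the log2 scale soleus exceeded EDL by 0.81 (SE 0.26, adjusted p = 0.0470 by edgeR), and the value was 0.43 in soleus vs psoas (SE 0.26, adjusted p = 0.304), and 0.38 in psoas vs EDL (SE 0.27, adjusted p = 0.382).

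**Figure D3:**
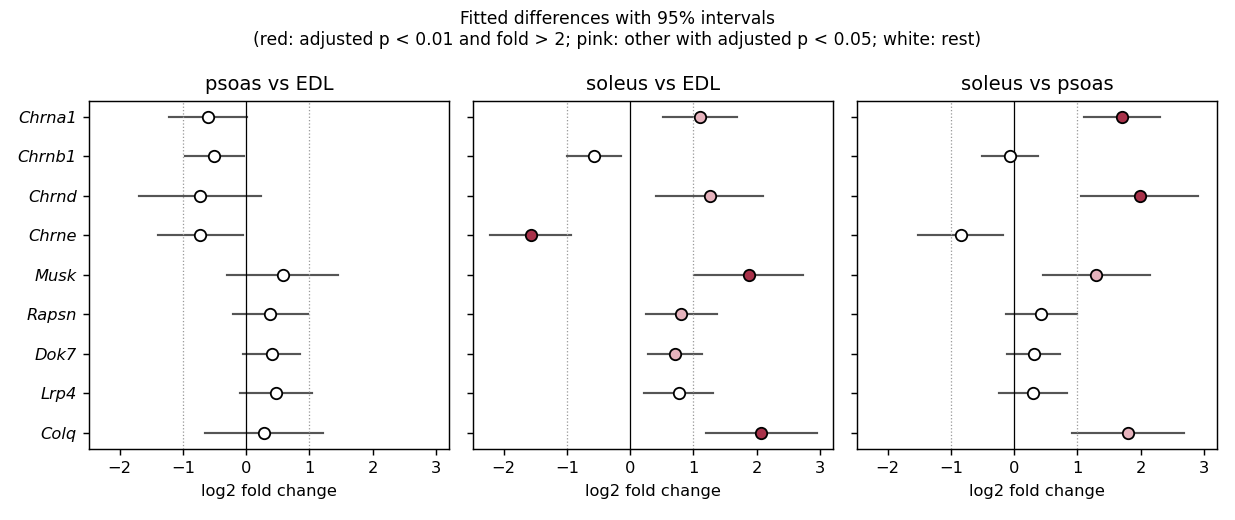
Log2 fold change (horizontal axes) of the 9 genes in each pair of muscles, with 95% intervals and dotted lines at a fold of 2 in either direction. In both comparisons with soleus, Chrna1, Chrnd, Musk, and Colq lie to the right of 0 with intervals clear of it and Chrne to the left, and in psoas vs EDL no gene is marked as called.

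Colq encodes the collagen tail that anchors acetylcholinesterase in the synaptic basal lamina and also binds MuSK (chromosome 14, 31523082 to 31591343, minus strand). Its level was 1.92, 5.86, 6.94, and 4.80 CPM in soleus 1 to 4, 1.19, 1.21, and 1.04 CPM in EDL 1 to 3, and 1.82, 0.888, and 1.42 CPM in psoas 1 to 3. Each soleus library exceeded each fast muscle library, but soleus 1 stood only just above psoas 1, which carries the same animal code. Colq rose 4.22-fold in soleus over EDL (log2 fold change 2.08, SE 0.40, adjusted p = 0.0055 by edgeR), the largest difference of the 9 genes in that comparison. The call was made under 11 of 22 alternatives, with log2 fold changes from 1.57 to 2.34 and adjusted p from 1.7e-05 to 0.208. It was lost on dropping soleus 2, soleus 3, soleus 4, or any EDL library (adjusted p of 0.0119 to 0.0314), and within untrimmed libraries the difference was 2.17 (adjusted p = 0.208). Against psoas the log2 fold change was 1.80 (SE 0.40, adjusted p = 0.0122 by edgeR), which missed the threshold of 0.01. Of the 22 alternatives, 2 called it. These were DESeq2 (1.77, adjusted p = 4.8e-04) and the edgeR fit without soleus 1 (2.06, adjusted p = 0.0016). Psoas and EDL differed by 0.28 with a 95% interval from -0.65 to 1.21. The gene model Gm49387 on the same strand, which has no row in the files, shares 199 exon bases with Colq (5.23% of its exon length), and reads from that stretch could belong to either.

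The transcript of acetylcholinesterase itself ran the other way. Ache, which encodes the enzyme that ends each synaptic signal, was at 4.55, 4.09, and 3.13 CPM in EDL 1 to 3, 5.36, 3.61, and 3.26 CPM in psoas 1 to 3, and 1.23, 1.62, 1.52, and 1.32 CPM in soleus 1 to 4. No soleus library overlapped a fast muscle library. Ache fell in soleus, with a difference of -1.46 from EDL (log2 scale, SE 0.25, adjusted p = 0.0027 by edgeR) and of -1.52 from psoas (SE 0.25, adjusted p = 0.0021). The soleus vs EDL call was lost without EDL 1, EDL 2, or soleus 4 (adjusted p up to 0.0150), whereas the soleus vs psoas call was made with any single library left out. Within untrimmed libraries the log2 fold changes were -1.18 and -1.20, neither of them called. Transcripts of the enzyme and its collagen tail thus differed between soleus and the fast muscles in opposite directions, as the gene pair plot shows. The Colq difference from psoas was not called (adjusted p = 0.0122 by edgeR). Both genes have multiple transcript forms that gene-level counts do not separate.

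**Figure D4:**
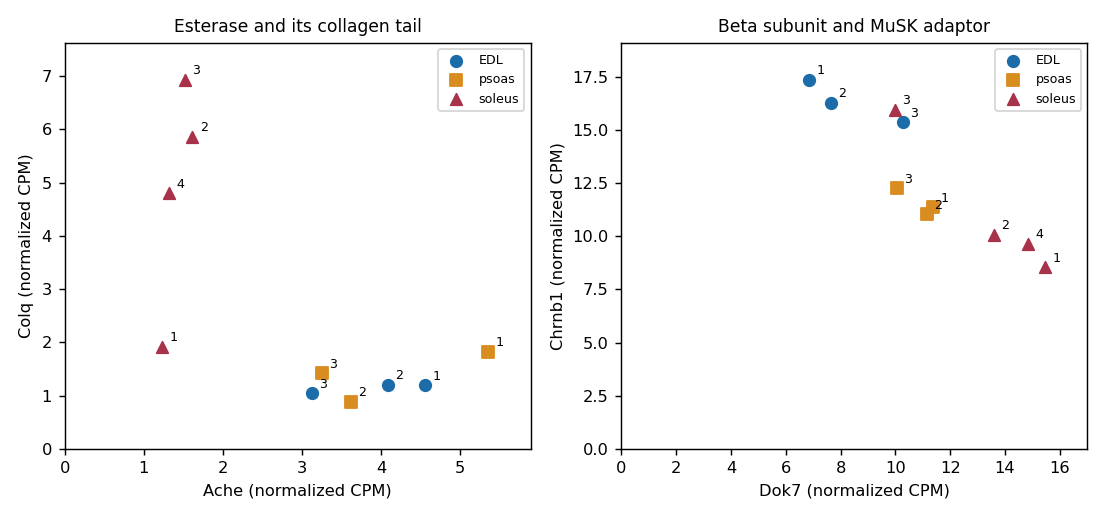
Normalized CPM of Colq against Ache (left) and of Chrnb1 against Dok7 (right) in the 10 libraries, with all axes from 0 and replicate numbers beside the points. On the left the soleus libraries have Ache between 1.23 and 1.62 and Colq between 1.92 and 6.94 while EDL and psoas have more Ache and less Colq, and on the right soleus 3 lies beside EDL 3.

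The other genes of the junction were examined through 8 lists holding 111 genes outside the 10 named above, of which 91 had a row. In psoas vs EDL 2 of the 91 were called (2.20%), in soleus vs EDL 13 (14.3%; 8 higher and 5 lower), and in soleus vs psoas 11 (12.1%; 5 higher and 6 lower). These shares stand beside 2.11%, 5.77%, and 5.69% of all genes. Ache was the single call among 16 measured genes of the synaptic basal lamina and nerve signals, which include agrin, the laminins, and the ErbB receptors, in both comparisons with soleus, and none of them was called in psoas vs EDL. None of 5 regulators of synaptic transcription was called in any comparison.

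Among 26 genes for signaling and scaffolding beside MuSK and rapsyn, 3 were called in soleus vs EDL and 1 in soleus vs psoas. Pak1, a kinase of the actin cytoskeleton activated downstream of agrin, was at 2.75 to 5.34 CPM in soleus, 18.8 to 28.3 in EDL, and 15.0 to 31.3 in psoas. It fell in soleus, by -2.55 against EDL (log2 fold change, SE 0.28, adjusted p = 2.5e-04 by edgeR) and by -2.46 against psoas (SE 0.28, adjusted p = 3.0e-04), and both calls were made under 21 of 22 alternatives. Ptpn11, which encodes the phosphatase SHP2, rose in soleus over EDL by 1.06 (adjusted p = 0.0073 by edgeR). This call was made under 6 of 22 alternatives and lost on leaving out 9 of the 10 libraries in turn (adjusted p up to 0.0524).

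In the dystrophin complex of the synapse, 1 of 10 genes was called in psoas vs EDL and 2 in soleus vs psoas. Kcnj12, which encodes the inward rectifier potassium channel Kir2.2, was at 29.5 to 41.0 CPM in psoas, 14.3 to 16.7 in EDL, and 9.65 to 16.5 in soleus. It rose in psoas over EDL by 1.21 (SE 0.21, adjusted p = 0.0071 by edgeR), a call made under 11 of 23 alternatives and lost on leaving out 7 of the libraries in turn (adjusted p up to 0.0457), and it fell in soleus relative to psoas with a log2 fold change of -1.58 (adjusted p = 4.6e-04). Nos1, the neuronal nitric oxide synthase of the sarcolemma, was at 27.1 to 45.6 CPM in psoas, 6.70 to 21.7 in EDL, and 6.02 to 14.4 in soleus. It was lower in soleus than in psoas by 1.99 (SE 0.40, adjusted p = 0.0067 by edgeR), while EDL and soleus overlapped. The Nos1 call was lost on leaving out 7 of the libraries in turn (adjusted p up to 0.0293). Of 12 genes enriched in subsynaptic nuclei, 2 were called in each comparison with soleus, Ache among them. Hs6st2, a heparan sulfate sulfotransferase, fell in soleus relative to EDL by 1.38 (adjusted p = 0.0081 by edgeR), lost on leaving out 8 of the libraries in turn (adjusted p up to 0.0376). Ncam1, a cell adhesion gene of the synapse, rose in soleus over psoas by 1.85 (SE 0.32, adjusted p = 0.0032 by edgeR), from 1.14 to 3.12 CPM in psoas to 6.23 to 10.4 in soleus, a call lost without soleus 2 or soleus 4 (adjusted p up to 0.0112). The Ncam1 level in EDL, 5.03 to 6.38 CPM, lay above psoas and overlapped soleus.

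The list of genes known to rise after denervation held 14 measured genes outside the receptor and its organizers, some of which are themselves known to rise after denervation. Of these, 1 was called in psoas vs EDL, and 6 in each comparison with soleus, 4 higher and 2 lower. The 4 that were higher in soleus than in EDL were Sln, Dach2, Fbxo32, and Hdac9, and the 4 that were higher in soleus than in psoas were Sln, Ankrd1, Ncam1, and Hdac9. Gadd45a and Myh8 were lower in both comparisons. Sln, which encodes the calcium pump inhibitor sarcolipin, was at 18.3 to 83.4 CPM in soleus, 0.848 to 1.12 in EDL, and 0.190 to 1.13 in psoas. It rose by 5.62 over EDL (SE 0.62, adjusted p = 2.3e-04 by edgeR) and by 6.60 over psoas (SE 0.69, adjusted p = 1.7e-04). Dach2, a transcriptional corepressor of myogenin, rose over EDL by 4.09 (SE 0.65, adjusted p = 0.0019 by edgeR), from 0.654 to 1.51 CPM in EDL to 9.81 to 37.8 in soleus, and the call was lost without EDL 1 (adjusted p = 0.0152). In psoas Dach2 was at 2.97 to 12.6 CPM, which overlaps soleus, and the difference of 1.46 between them was not called (adjusted p = 0.110 by edgeR).

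Fbxo32, the ubiquitin ligase atrogin-1, rose over EDL by 1.70 (adjusted p = 0.0017 by edgeR), a call lost without EDL 2 (adjusted p = 0.0112). Its level in psoas, 85.8 to 145 CPM, overlapped the 124 to 185 CPM of soleus, and the difference of 0.40 was not called (adjusted p = 0.330). Hdac9, a class IIa histone deacetylase, rose over EDL by 1.27 (adjusted p = 0.0063) and over psoas by 1.69 (adjusted p = 0.0016). The Hdac9 call against EDL was lost on leaving out 5 of the libraries in turn (adjusted p up to 0.0364). Gadd45a, a stress gene that denervation induces in muscle nuclei, moved the other way, with 2.74 to 4.45 CPM in soleus, 7.43 to 12.6 in EDL, and 8.81 to 14.9 in psoas. Its log2 fold change was -1.53 in soleus vs EDL (SE 0.26, adjusted p = 0.0030 by edgeR, lost without soleus 2 or soleus 4 with adjusted p up to 0.0121) and -1.93 in soleus vs psoas (SE 0.26, adjusted p = 8.0e-04). Myh8, the perinatal myosin heavy chain, fell with -1.32 against EDL (adjusted p = 0.0028) and -1.80 against psoas (adjusted p = 4.8e-04). It lies in a cluster of near-identical myosin genes, so reads may have been split among them, and the call against EDL was lost on leaving out 4 of the libraries in turn (adjusted p up to 0.0137).

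Ankrd1, a stretch-responsive ankyrin repeat gene, separated the 2 fast muscles, with 40.3 to 54.3 CPM in EDL, 0.637 to 1.52 in psoas, and 7.03 to 35.6 in soleus. It fell in psoas relative to EDL by 5.27 (SE 0.63, adjusted p = 0.0014 by edgeR), a call lost without psoas 2 (adjusted p = 0.0101). In soleus it rose over psoas by 3.75 (SE 0.59, adjusted p = 0.0018), a call lost without psoas 1 or psoas 2 (adjusted p up to 0.0118). Unc13b, a vesicle priming gene from the list of 9 measured glycosylation and nerve terminal genes, was at 10.8 to 15.9 CPM in soleus, 2.53 to 5.60 in EDL, and 3.06 to 4.74 in psoas. It rose by 1.53 over EDL (SE 0.28, adjusted p = 0.0042 by edgeR) and by 1.74 over psoas (SE 0.29, adjusted p = 0.0024). The first call was lost on leaving out 5 of the libraries in turn (adjusted p up to 0.0147), and the second without psoas 1 or psoas 2 (adjusted p up to 0.0135). Because whole muscle was sequenced, the cells that carried these transcripts cannot be told apart.

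Among 16 other nicotinic and muscarinic receptor genes, 3 had a row. Chrna2, a neuronal alpha subunit, had 11, 14, 11, and 28 reads in soleus 1 to 4, against 0, 2, and 0 in EDL 1 to 3 and 1, 0, and 3 in psoas 1 to 3. It was called in soleus vs EDL (adjusted p = 0.0044 by edgeR) and missed the threshold against psoas (adjusted p = 0.0210). No fold change is given because the EDL libraries were all at or under the floor of 3 reads, and the call was lost on leaving out 4 of the libraries in turn (adjusted p up to 0.0279). Chrna10 was at 4.64 to 10.8 CPM over the 10 libraries and Chrm3 at 0.0528 to 0.479 CPM, and neither was called in any comparison.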

How the data were processed

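The authors sequenced stranded, ribosome-depleted RNA as paired reads of 75 bases, trimmed some libraries with Trimmomatic 0.32 and aligned with TopHat2 2.1.1. Deposited values are whole-number counts per gene, without normalization, restricted to genes that reach 10 reads in 3 or more samples, a filter that all 16112 genes met when checked. The handling of reads with several alignments and the strand setting of the counting are not given in the sources used here. Trimming status came from the study's supplementary methods.

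Muscles were taken from the labels. The 3 pairwise comparisons came from 1 edgeR 4.0.16 quasi-likelihood fit (R 4.3.3) over all genes and 10 libraries, with TMM normalization, no covariate and Benjamini-Hochberg adjustment, after the scripts were tested on simulated data. Thresholds followed the study. The standard error was taken from the F statistic, and intervals cover 95%. DESeq2 1.42.0, limma 3.58.1 voom, other normalizations, filters, covariates, trimming classes and leaving out each library were alternatives. The p-values measure the spread between libraries, some from 1 mouse. Counting limits cover counting error only.

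FPKM used summed exon lengths from GENCODE M21 (GRCm38), in which 16032 genes have a symbol. The members and lists were chosen with earlier results of these data known. Named outside the members is every called gene of the lists, at most the 3 largest rises and falls per list and comparison. For likeness, the 3 genes with the highest Pearson r of log2 CPM (prior count 2) were taken for each called member among genes of at least 1 CPM on average. Hdac9, Chrna10 and Chrm3 fall outside this rule and were named after their values were seen. Replicate numbers were not used as pairs. The 3 pairs of libraries with the same animal code deviated from their muscle means with correlations of 0.187, 0.340 and 0.381 across genes, and an alternative fit with limma-voom took the animal as a random effect. Of the called list genes, 1 is not reported here.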

Additional observations from a re-analysis of the deposited data

How the results depend on the processing

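The 9 genes gave 603 values over the alternatives, of which 595 kept their direction. In psoas vs EDL, Musk turned to -0.11, Rapsn to -0.56, and Dok7 to -0.068 within untrimmed libraries, and without psoas 1 Musk was at -0.035 and Colq at -0.038 (Musk -0.035 to 0.82 over the libraries left out). In soleus vs psoas, Chrnb1 was at 0.035 without soleus 1 (-0.31 to 0.035 over the libraries left out), and Lrp4 at -0.049 with trimming as a covariate and -0.19 within untrimmed libraries. The causes were not tested. In psoas vs EDL 0 of the 9 genes were called under each of 23 alternatives. In soleus vs EDL (3 called) the count was 0 with trimming or age as a covariate and within untrimmed libraries, 1 with sex as a covariate without soleus 3, 7 at an adjusted p under 0.05 with no minimum fold, and 0 to 4 on leaving out 1 library. In soleus vs psoas (2 called) it was 4 with DESeq2, 1 with limma-voom, with the animal as a random effect, with the 2 muscles fitted alone, and with trimming, sex, or age as a covariate, 0 within untrimmed libraries, 4 at an adjusted p under 0.05, and 1 to 3 on leaving out 1 library. Of the 91 other genes of the junction, psoas vs EDL (2 called) gave 11 with DESeq2, 1 with the muscles alone, 4 with trimming, 8 with sex, and 1 with age as a covariate, 1 within trimmed and 0 within untrimmed libraries, 13 at an adjusted p under 0.05, and 0 to 7 on leaving out 1 library. Soleus vs EDL (13 called) gave 5 with trimming and 5 with age as a covariate, 0 within untrimmed libraries, 24 at an adjusted p under 0.05, and 4 to 14 on leaving out 1 library. Soleus vs psoas (11 called) gave 17 with DESeq2, 0 within untrimmed libraries, 29 at an adjusted p under 0.05, and 8 to 12 on leaving out 1 library. Within untrimmed libraries EDL and psoas have 1 library each, whose spread is assumed to be that of soleus, and fewer samples entered the fit.

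With the replicate number as a block, 1 of the 9 genes was called in soleus vs EDL and 1 in soleus vs psoas, and of the other junction genes 1 in psoas vs EDL, 5 in soleus vs EDL, and 6 in soleus vs psoas. Same-numbered libraries deviated from their muscle means with correlations of -0.23 to 0.50 across genes. Libraries with the same animal code, at 0.187 to 0.381, fell within that range, so these values cannot decide whether the numbers pair the libraries. Psoas 1 and soleus 1 share both the number and the animal code. With upper-quartile normalization, all genes together had a median of -0.14 (log2) in soleus vs EDL. Shares of Chrng could not be computed, since Chrng has no row. The delta and epsilon subunits and Colq, with as few as 5, 9, and 14 reads in a library, were the genes most limited by depth.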

Other observations

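The genes whose log2 CPM was most like that of each called member over the 10 libraries were searched among 12712 genes with a mean of at least 1 CPM. For Chrna1 they were Psat1 (Pearson r = 0.963), Ahcyl1 (0.959), and Trpc1 (0.953). For Chrnd they were Fbxl2 (0.940), Astn2 (0.936), and Patj (0.931), and for Chrne Col6a6 (0.973), Exph5 (0.971), and Rsu1 (0.957). For Musk they were Parp4 (0.952), Cidea (0.947), and Cdh22 (0.945), and for Colq Myo9a (0.977), Cobll1 (0.973), and Trp53bp1 (0.959). No gene was shared by 2 of these 5 lists. The values describe 10 libraries of which the 4 from soleus stand apart from the rest, so a gene that differs between soleus and the fast muscles reaches a high r in this set, and no p is given.

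Soleus 3, the library of the youngest mouse (32 days), had the highest Chrnb1 (15.9 CPM), Musk (53.3 CPM), Colq (6.94 CPM), and Lrp4 (28.9 CPM) of the 4 soleus libraries and the lowest Dok7 (9.97 CPM), Chrne (0.718 CPM), and Rapsn (2.71 CPM). It was also the library with the fewest reads (12737971) and the only one without a stated sex. It was the library farthest from the other soleus libraries for Chrnb1, Musk, and Dok7, where its gap to the nearest of them was 0.794, 0.382, and 0.662 of the soleus range, below the critical value of Dixon's outlier test. Age and the other features of this library cannot be told apart.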
